A study of Homo sapiens with 32 samples.

Results

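The 8 genes described here, MYC, JUN, EGR1, MAFF, IER2, IER3, HBEGF and TRIB1, are immediate early transcription and growth genes, taken by name from a table of 13133 genes. They were chosen with earlier results of these data known, so counts of them set beside the share of all genes are descriptions. All 8 were in the table, and all 8 had a mean of at least 5 normalized reads over the libraries, as did 9324 genes in all, which were the genes tested. HepG2 is a human liver tumour cell line. The cells received medium alone (NoNP) or silver nanoparticles at 1.2 ug/mL coated with citrate, with polyethylene glycol (PEG) or with branched polyethylenimine (bPEI), and lysates were collected at 6, 12 and 24 h. RNA was measured by TempO-Seq, in which pairs of short detector oligos that meet on a target RNA are ligated, amplified and counted. The 32 libraries made 12 groups. At 6 h there were 3 libraries each of NoNP and bPEI and 2 each of PEG and citrate. At 12 h every group had 3. At 24 h there were 2 each of NoNP and bPEI and 3 each of PEG and citrate. Every group came from this single tumour line, and cells given a coat without silver, or silver ions, were not analysed here.

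Immediate early genes are transcribed within minutes of a growth factor, cytokine or stress signal, without new protein synthesis, largely through ERK, p38 and JNK kinases acting on serum response factor, ETS and CREB or ATF proteins bound at their promoters. Their RNAs are short-lived, so their level follows ongoing transcription closely, and many of their products are themselves transcription factors or regulators of growth factor signalling. In liver, MYC, JUN and EGR1 are known for their early rise after partial hepatectomy, and HBEGF is known as a hepatocyte mitogen.

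The bases before the transcription start of MAFF, HBEGF, IER2 and EGR1 are shown because the first 3 of these genes rose together with citrate at 6 h while EGR1 did not pass the test there. EGR1 also had both citrate libraries above every NoNP library, with a mean 1.92 times that of NoNP. Whether EGR1 differed from the other 3 genes was not tested. The sequences are the 250 bases before the start in RefSeq (GRCh38.p14), 5′ to 3′ on the gene's strand, with motif matches in capitals. The RefSeq table held such a window for 5 of the 8 genes, IER2, JUN, EGR1, MAFF and HBEGF, with 2 windows for MAFF, of which the first is shown.
MAFF, chr22:38201744-38201993, plus strand: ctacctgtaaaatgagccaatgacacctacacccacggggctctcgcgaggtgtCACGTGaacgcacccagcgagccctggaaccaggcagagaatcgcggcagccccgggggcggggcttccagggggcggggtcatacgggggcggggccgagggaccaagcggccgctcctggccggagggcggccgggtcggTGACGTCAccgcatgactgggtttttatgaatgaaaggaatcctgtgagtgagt
HBEGF, chr5:140346604-140346853, minus strand: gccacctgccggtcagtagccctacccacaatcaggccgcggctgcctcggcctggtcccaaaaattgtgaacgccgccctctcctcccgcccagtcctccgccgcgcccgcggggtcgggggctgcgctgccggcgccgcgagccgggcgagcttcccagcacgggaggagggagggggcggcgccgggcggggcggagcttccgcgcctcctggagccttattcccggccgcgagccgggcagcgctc
IER2, chr19:13150161-13150410, plus strand: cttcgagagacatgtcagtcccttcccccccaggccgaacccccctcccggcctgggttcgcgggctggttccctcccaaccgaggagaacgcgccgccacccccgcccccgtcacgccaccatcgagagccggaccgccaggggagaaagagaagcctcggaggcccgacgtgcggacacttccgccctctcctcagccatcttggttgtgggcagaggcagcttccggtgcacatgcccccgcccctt
EGR1, chr5:138465229-138465478, plus strand: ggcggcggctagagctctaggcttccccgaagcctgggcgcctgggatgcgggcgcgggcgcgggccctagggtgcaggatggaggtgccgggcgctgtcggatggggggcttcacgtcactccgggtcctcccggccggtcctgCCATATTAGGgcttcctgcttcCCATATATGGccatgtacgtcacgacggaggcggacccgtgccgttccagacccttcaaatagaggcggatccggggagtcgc
The motifs searched on both strands were the cAMP response element (TGACGTCA), the AP-1 site (TGACTCA), the E-box (CACGTG), the EGR site (GCGTGGGCG), an ETS site (CCGGAAGT) and the CArG box, which serum response factor binds. Counting from the start, the MAFF window held a cAMP response element at -54 and an E-box at -196, and the EGR1 window held CArG boxes at -105 and -83. The second MAFF window held an E-box at -81. None of the 6 motifs was found in the windows of IER2, HBEGF and JUN. Among all 35114 windows of this length, 1.65% held the cAMP response element, 4.20% the AP-1 site, 6.35% the E-box, 0.721% the EGR site, 3.42% the ETS site and 1.16% the CArG box. A match describes letters in a window and is not evidence of binding.

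The libraries held 1313855 to 6735072 reads (median 3373855) over 9111 to 11473 genes with a read. The 8 hepatocyte markers had reads in every library. Albumin ran between 89911 and 268230 normalized reads, and the fibrinogen gene FGB, the lowest of the 8, between 215 and 4041. Of the 8 markers of other cell types, 5 were in the table. Of these, COL1A1 reached at most 8.83 normalized reads, COL3A1 3.50 and KRT5 8.04, PECAM1 27.1 and CD68, which tumour lines can express, 216. NoNP replicates A and B at 24 h differed from each other by a median absolute log2 difference of 0.94 over the genes tested. In the other groups this distance from the group's other libraries was 0.28 to 0.54, apart from bPEI replicate B at 6 h with 0.73. For the 8 genes, values without 1 of these libraries are given beside the results whose call it changed. Genes of the other lists given below were not examined in this way. No label says that replicates were separate cultures, so the p-values measure the spread between these libraries, which may be technical.

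Values are normalized reads, meaning reads divided by a size factor of the library, and differences are log2 differences of the value plus 1 with their standard error. A gene is called where limma's test, fitted on all 32 libraries with p-values adjusted by Benjamini-Hochberg over the 9324 genes, gave an adjusted p under 0.05. A gene said to rise or fall with a coating at a time was called higher or lower than in NoNP of that time. The probes of different genes differ in efficiency, so levels are compared within a gene only.

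Citrate-coated silver raised the largest number of these genes. At 6 h, MAFF, HBEGF, IER2 and MYC rose with citrate, 4 of the 8 genes, where 0.172% of all genes tested were called higher. At 12 h, IER2, MAFF and MYC rose, 3 of 8, where 3.88% were called higher. At 24 h none was called higher with citrate, and TRIB1 fell, 1 of 8, where 1.4% were called lower. The median log2 difference over the 8 genes was 1.21 at 6 h, 0.87 at 12 h and -0.63 at 24 h, beside medians over all genes tested of -0.00, -0.02 and 0.04.

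PEG-coated silver gave fewer calls. At 6 h limma called none of the 8 genes, where 0.0215% of genes were called, although 4 had an unadjusted p under 0.05 and edgeR also called 0. This result depended on the fit. MAFF and HBEGF were called with PEG at 6 h where each group had its own variance weight. MAFF, HBEGF and IER2 were called where only the groups compared were fitted. The same genes were called without both bPEI replicate B of 6 h and NoNP replicate B of 24 h. At 12 h MYC rose, 1 of 8, where 0.279% were called higher. At 24 h HBEGF and TRIB1 fell, 2 of 8, where 0.708% were called lower.

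With bPEI-coated silver none of the 8 genes was called higher at any time. TRIB1 was called lower than in NoNP at 6 h, 1 of 8, where 1.32% of genes were called lower. It was also called lower than in NoNP at 24 h, 1 of 8, where 1.5% were called lower. At 12 h limma called none, where 0.0965% of genes were called, none had an unadjusted p under 0.05, and edgeR also called 0. Because all 3 coatings at a time were compared with the same NoNP libraries, calls of a gene with several coatings at that time are not independent. The test cannot tell more RNA per cell from a larger share of cells that express the gene.

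**Figure D1:**
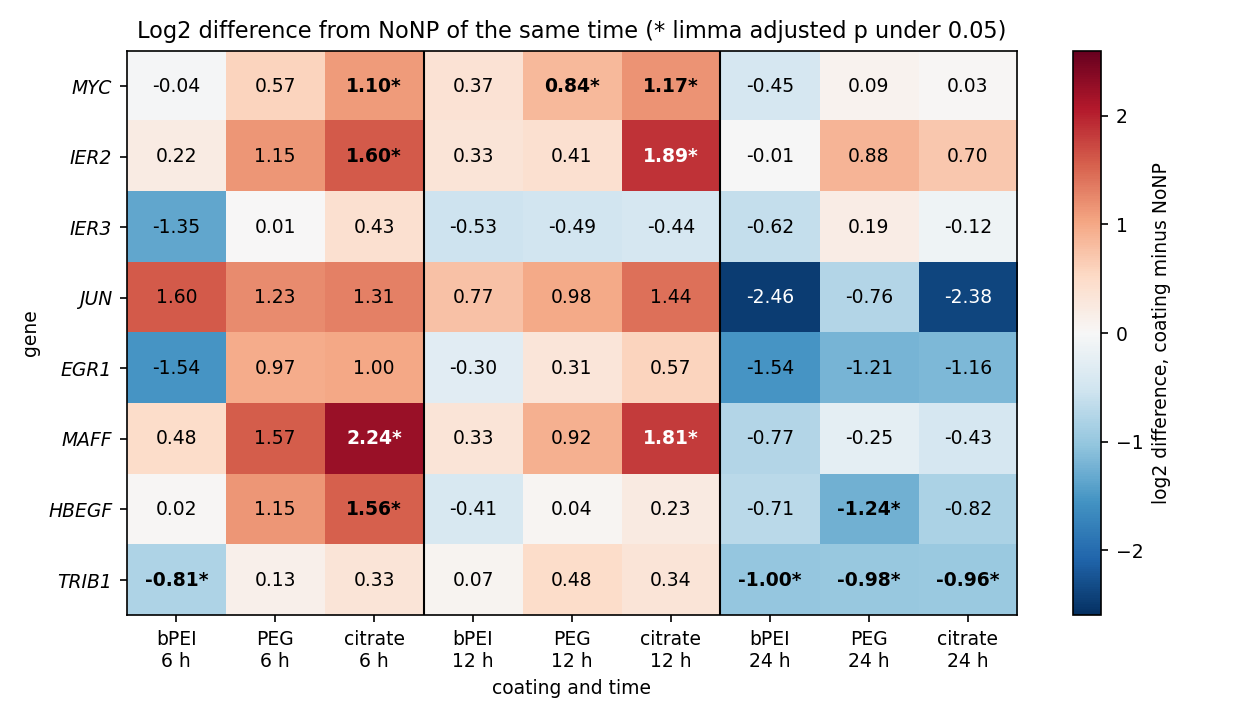
Log2 difference of each gene (vertical axis) from NoNP of the same time for the coating and time on the horizontal axis, with colour and printed value giving the difference and an asterisk marking limma adjusted p under 0.05. The called increases are 4 with citrate at 6 h, 3 with citrate at 12 h and 1 with PEG at 12 h, TRIB1 is called lower with every coating at 24 h, and MYC with bPEI at 6 h, IER2 with bPEI at 24 h and IER3 with citrate at 24 h change sign with equal library totals.

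Among the transcription factors, MAFF had the largest difference of the 8 genes with citrate at 6 h. MAFF is a small MAF protein that binds DNA but lacks an activation domain, and pairs with CNC proteins such as NRF2 or with itself. At 6 h MAFF stood at 139, 92.6 and 79.6 normalized reads in NoNP, at 158, 169 and 106 with bPEI, at 427 and 214 with PEG and at 391 and 592 with citrate. Both citrate libraries and both PEG libraries lay above every NoNP and bPEI library, and the PEG and citrate values overlapped. MAFF was 4.73-fold higher with citrate than in NoNP, a log2 difference of 2.24 ± 0.39 (limma adjusted p = 0.0033), while the PEG difference of 1.57 ± 0.39 was not called (limma adjusted p = 0.138).

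At 12 h MAFF was lower in every group than at 6 h, at 38.3, 32.6 and 43.8 normalized reads in NoNP, 41.5, 54.6 and 48.3 with bPEI, 72.3, 58.7 and 89.5 with PEG and 111, 143 and 157 with citrate. Every citrate library was above every PEG library, and every PEG library above every NoNP and bPEI library. The citrate group was 3.59-fold above NoNP, a log2 difference of 1.81 ± 0.35 (limma adjusted p = 0.00177), and the PEG difference of 0.92 ± 0.35 was not called (limma adjusted p = 0.282). At 24 h the values were 101 and 278 in NoNP, 101 and 95.4 with bPEI, 217, 110.1 and 118 with PEG and 144, 158 and 83.6 with citrate. The 2 NoNP libraries were farther apart than the whole range of PEG and citrate, 83.6 to 217, and no MAFF difference was called. The bPEI difference of MAFF, -0.77, was called without NoNP replicate A (-1.49) and was -0.040 without replicate B. Without NoNP replicate B the 24 h differences of PEG and citrate turned from -0.25 and -0.43 to 0.48 and 0.29 in MAFF.

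MYC heterodimerizes with MAX at E-boxes and drives genes of ribosome production, metabolism and cell growth. At 6 h MYC stood at 1028, 752 and 662 normalized reads in NoNP, at 891, 706 and 754 with bPEI, at 1329.5 and 1062 with PEG and at 1627 and 1809.7 with citrate. The citrate libraries were the highest of all 32 in MYC, and the PEG libraries lay between them and NoNP without overlap. MYC was 2.11-fold higher with citrate, a log2 difference of 1.10 ± 0.22 (limma adjusted p = 0.0174), beside 0.57 ± 0.22 with PEG (limma adjusted p = 0.504).

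At 12 h MYC stood at 609, 532 and 668 normalized reads in NoNP, 725, 829 and 772 with bPEI, 1149, 827 and 1301 with PEG and 1552, 1298 and 1213 with citrate. NoNP was below every exposed library, and citrate was above every bPEI library. MYC was 2.25-fold higher with citrate, a log2 difference of 1.17 ± 0.20 (limma adjusted p = 0.000534), and 1.81-fold higher with PEG, 0.84 ± 0.20 (limma adjusted p = 0.0346), while with bPEI it was 0.37 ± 0.20 (limma adjusted p = 1.0). The PEG call ended when NoNP replicate A or B, or PEG replicate A or C, was left out, with log2 differences of 0.85, 0.75, 0.79 and 0.70 in that order. At 24 h MYC had 1088 and 1089.7 in NoNP, 881 and 724 with bPEI, 1436, 1079.6 and 1005 with PEG and 1226, 1195 and 942 with citrate. Citrate and PEG enclosed the NoNP values, with log2 differences of 0.03 (95% interval -0.41 to 0.48) and 0.09 (-0.35 to 0.54).

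EGR1 is a zinc finger factor that serum response factor and ETS proteins induce. At 6 h EGR1 stood at 202, 94.8 and 147 normalized reads in NoNP, 102, 8.55 and 118 with bPEI, 367 and 211 with PEG and 256 and 313 with citrate. The PEG and citrate libraries all lay above NoNP, and bPEI replicate B, with 5 reads, was far below its group. None of these differences was called, at -1.54 ± 0.57 with bPEI, 0.97 ± 0.64 with PEG and 1.0 ± 0.64 with citrate (limma adjusted p = 0.144, 0.708 and 0.611). The bPEI difference in EGR1 was -0.36 without bPEI replicate B, and it was called without bPEI replicate A (-2.08) or C (-2.18). The citrate difference of EGR1 was called when the fit left out both bPEI replicate B of 6 h and NoNP replicate B of 24 h. At 24 h the 2 NoNP libraries had 396 and 953, above all 8 exposed libraries, which ran from 165 to 388. The 24 h differences were -1.54 ± 0.70 with bPEI, -1.21 ± 0.64 with PEG and -1.16 ± 0.64 with citrate, none called (limma adjusted p = 0.243, 0.36 and 0.363). Without NoNP replicate B these EGR1 differences were -0.91, -0.58 and -0.53, and without NoNP replicate A -2.17, -1.84 and -1.79, again not called.

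JUN, a subunit of AP-1, was covered by 0 to 78 reads per library, the fewest of the 8 genes. At 6 h JUN had 10.2, 21.5 and 8.78 normalized reads in NoNP, 36.4, 63.2 and 27.6 with bPEI, 26.2 and 35.9 with PEG and 19.3 and 54.7 with citrate. All bPEI and PEG libraries were above NoNP, and citrate overlapped it. The differences of 1.60 ± 0.88, 1.23 ± 0.99 and 1.31 ± 0.99 were not called (limma adjusted p = 0.329, 0.76 and 0.688). At 24 h NoNP had 9.63 and 76.1, and the exposed libraries ran from 0 to 22.7, so that NoNP replicate B alone set the group apart. No JUN difference was called at 24 h, but without NoNP replicate A those of bPEI and citrate were, at -3.89 and -3.81, while without replicate B the bPEI difference was -1.03. The citrate library with 0 reads allows up to 3 reads, or 6.24 normalized reads. JUN differences as large as 1.60 at 6 h and -2.46 at 24 h, both with bPEI, were not called. A change of that size in JUN can thus go uncalled with these libraries, and the part of depth in this was not tested.

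**Figure D2:**
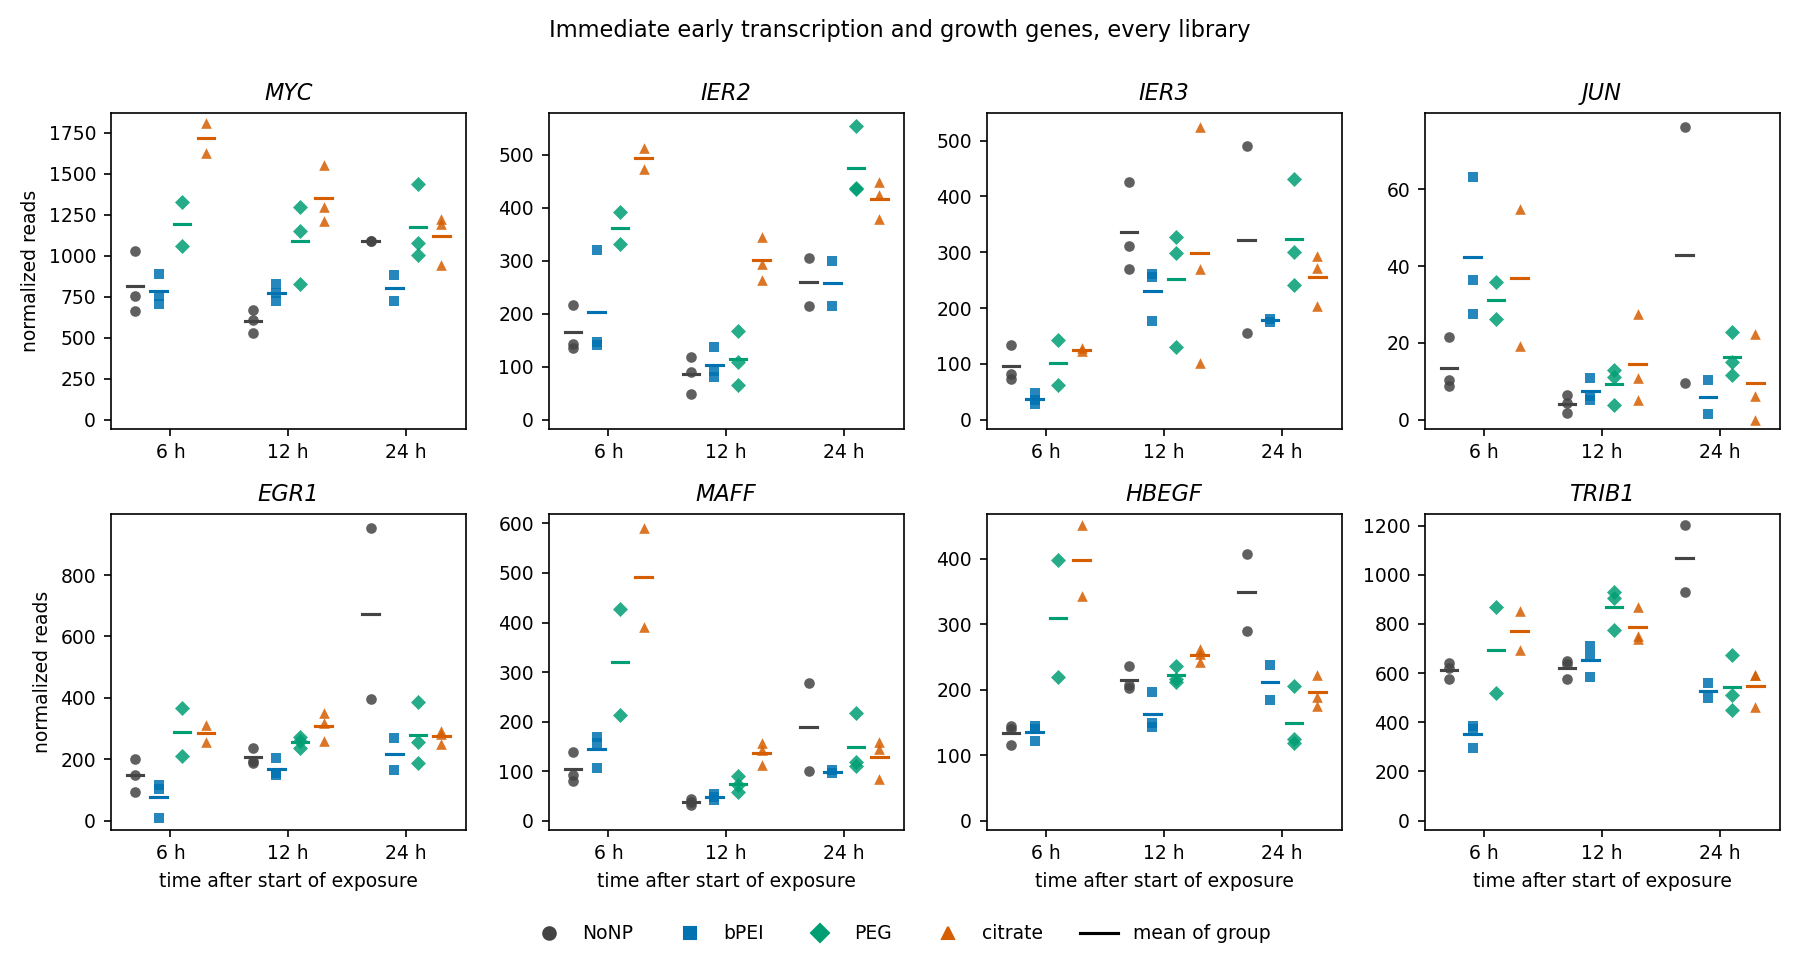
Normalized reads (vertical axis, from 0, with its own scale for each gene) of the 8 genes at 6, 12 and 24 h (horizontal axis), with a point for each of the 32 libraries and a bar at the mean of each group. MAFF, MYC, IER2 and HBEGF show their highest group mean with citrate at 6 h, and TRIB1 and EGR1 in NoNP at 24 h. Without NoNP replicate B of 24 h, the remaining NoNP library of 24 h, at 408, lies above the HBEGF mean with citrate at 6 h. Without replicate A instead, the remaining one, at 289, lies below it.

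IER2 encodes a small nuclear protein induced with the other immediate early genes. At 6 h IER2 stood at 217, 136 and 143 normalized reads in NoNP, 141, 319.6 and 147 with bPEI, 331 and 392 with PEG and 513 and 473 with citrate. Both citrate libraries exceeded every other library of that time, and both PEG libraries exceeded NoNP and bPEI. IER2 was 2.98-fold higher with citrate, a log2 difference of 1.60 ± 0.36 (limma adjusted p = 0.0447), and 2.19-fold with PEG, 1.15 ± 0.36 (limma adjusted p = 0.373).

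At 12 h IER2 had 90.5, 47.7 and 118 normalized reads in NoNP, 137, 81.4 and 92.2 with bPEI, 109.6, 65.8 and 167 with PEG and 263, 345 and 294 with citrate. Citrate stood above all 9 other libraries, which overlapped among themselves. The log2 difference of IER2 between citrate and NoNP was 1.89 ± 0.32, a 3.52-fold higher mean (limma adjusted p = 0.000608). At 24 h the values were 215 and 304 in NoNP, 215 and 299 with bPEI, 436, 437 and 554 with PEG and 425, 448 and 379 with citrate. PEG and citrate lay above NoNP and bPEI without overlap, but the differences of 0.88 ± 0.36 and 0.70 ± 0.36 were not called (limma adjusted p = 0.195 and 0.313).

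IER3 encodes a stress-induced membrane protein that modulates ERK signalling and apoptosis. At 6 h IER3 had 133, 73.3 and 82.3 normalized reads in NoNP, 48.5, 27.3 and 34.8 with bPEI, 143 and 61.3 with PEG and 128 and 122 with citrate. The bPEI libraries were below every other, with a difference of -1.35 ± 0.45 that was not called (limma adjusted p = 0.103). At 12 h IER3 ran from 270.0 to 426 in NoNP, 177 to 261 with bPEI, 131 to 327 with PEG and 102 to 525 with citrate. At 24 h NoNP had 491 and 154, beside 176 to 181 with bPEI, 241 to 431 with PEG and 203 to 294 with citrate. The 24 h differences of IER3 were -0.62 with bPEI, 0.19 with PEG and -0.12 with citrate. As single libraries were left out they ran from -1.46 to 0.21, -0.64 to 1.02 and -0.95 to 0.71 in that order. IER3 was not called in any comparison of a coating with NoNP.

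HBEGF encodes a membrane-anchored growth factor that is shed and binds EGFR and ERBB4. At 6 h HBEGF had 141, 144 and 115 normalized reads in NoNP, 140.0, 121 and 144 with bPEI, 398 and 219 with PEG and 343 and 452 with citrate. NoNP and bPEI overlapped, and every PEG and citrate library was above them. HBEGF was 2.98-fold higher with citrate, a log2 difference of 1.56 ± 0.27 (limma adjusted p = 0.0033), and 2.31-fold with PEG, 1.15 ± 0.27 (limma adjusted p = 0.119). The PEG difference of HBEGF was called without PEG replicate C (1.58).

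At 12 h HBEGF had 237, 202 and 207 normalized reads in NoNP, 148, 197 and 144 with bPEI, 236, 212 and 217 with PEG and 254, 261 and 242 with citrate. The differences were small, at -0.41 ± 0.24 with bPEI, 0.04 ± 0.24 with PEG and 0.23 ± 0.24 with citrate. At 24 h the order had turned, with 408 and 289 in NoNP, 238 and 185 with bPEI, 205, 124 and 118 with PEG and 189, 175 and 223 with citrate. Every exposed library was below both NoNP libraries. The PEG mean was 0.43 times the NoNP mean, a log2 difference of -1.24 ± 0.27 (limma adjusted p = 0.00828), and the differences of -0.82 ± 0.27 with citrate and -0.71 ± 0.30 with bPEI were not called (limma adjusted p = 0.084 and 0.183). The PEG call of HBEGF ended without NoNP replicate A, at -1.0, and the citrate difference was called without NoNP replicate B, at -1.06. The bPEI difference of HBEGF was -0.46 without replicate A.

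TRIB1 encodes a pseudokinase that brings the ubiquitin ligase COP1 to C/EBP proteins and is known in liver for its part in lipid metabolism. At 6 h TRIB1 had 578, 623 and 642 normalized reads in NoNP, 386, 296 and 374 with bPEI, 867 and 519 with PEG and 693 and 853 with citrate. The bPEI libraries were the lowest of all 32. TRIB1 was lower with bPEI by a log2 difference of -0.81 ± 0.20, at 0.57 times the NoNP mean (limma adjusted p = 0.0335). This call ended when any of NoNP replicates A, B and C was left out (-0.85, -0.80 and -0.78) and without bPEI replicate B (-0.69).

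At 12 h TRIB1 had 636, 576 and 651 normalized reads in NoNP, 669, 586 and 708 with bPEI, 776, 905 and 931 with PEG and 738, 751 and 869 with citrate. PEG and citrate lay above NoNP, but their differences of 0.48 ± 0.20 and 0.34 ± 0.20 were not called (limma adjusted p = 0.341 and 0.337). At 24 h TRIB1 had 1203 and 931 in NoNP, 558 and 498 with bPEI, 674, 510.1 and 449 with PEG and 593, 591 and 461 with citrate. All 8 exposed libraries fell below both NoNP libraries. The log2 differences were -1.0 ± 0.24 with bPEI, -0.98 ± 0.22 with PEG and -0.96 ± 0.22 with citrate (limma adjusted p = 0.0116, 0.0102 and 0.00974), so that each mean was 0.49 to 0.51 times that of NoNP.

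The 24 h calls of TRIB1 and HBEGF rest on the same 2 NoNP libraries, which had 1420319 and 2015520 reads, with 9111 and 9586 genes detected. The TRIB1 calls ended without NoNP replicate A for PEG (-0.79) and citrate (-0.77), without bPEI replicate B for bPEI (-0.92) and without PEG replicate C for PEG (-0.85). They also ended, with the same differences, where each group had its own variance weight or only the groups compared were fitted. Equal library totals moved the median of all genes at 24 h by 0.10 with bPEI, 0.14 with PEG and 0.17 with citrate, and the 24 h calls of TRIB1 held under that scaling. The summed hepatocyte markers at 24 h were 197860 to 258555 normalized reads in NoNP, 216256 to 267924 with bPEI, 165179 to 196452 with PEG and 158814 to 203936 with citrate. The part of these markers, of depth and of the distance between the 2 NoNP libraries in these results was not tested.

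The count with citrate at 6 h rested on few libraries. Without citrate replicate C none of the 4 genes was called, at 1.94 for MAFF, 1.36 for HBEGF, 1.66 for IER2 and 1.02 for MYC. Without NoNP replicate B, NoNP replicate C or citrate replicate A, 2 of the 4 were called, MAFF and HBEGF. At 12 h, MYC, IER2 and MAFF were called with citrate in all 15 alternatives run, with log2 differences between 1.06 and 1.24, 1.52 and 2.17, and 1.71 and 1.95 as single libraries were left out. Beside these 12 h calls, the summed level of the 8 hepatocyte markers was 176760 to 187934 normalized reads with citrate against 277878 to 293930 in NoNP, and its part in the result was not tested. This sum was also lower with citrate at 6 h, 318259 to 339828 against 347394 to 385622 in NoNP, and with PEG at 12 h, 206757 to 234186, and its part in the calls there was not tested either.

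Counting libraries instead of testing means, both PEG libraries were above all 3 NoNP libraries at 6 h for 6 of the 8 genes, MYC, IER2, JUN, EGR1, MAFF and HBEGF, where 15.9% of genes tested had this order. Both citrate libraries were above NoNP at 6 h for 6 of 8 genes (17.6% of all), and all 3 at 12 h for 6 of 8 (15.4%), in both cases MYC, IER2, EGR1, MAFF, HBEGF and TRIB1. At 24 h every exposed library was below both NoNP libraries for EGR1, HBEGF and TRIB1 with each coating. These were 3 of 8 with PEG (10.5% of all genes) and 3 of 8 with citrate (11.4%), and with MYC 4 of 8 with bPEI (17.1%).

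The coatings were also compared with each other at the same dose and time. At 6 h the F test among the 3 coatings called HBEGF, TRIB1 and MYC (limma adjusted p = 0.0114, 0.0183 and 0.0409), 3 of 8, where 0.107% of genes were called. Citrate was above bPEI by log2 differences of 1.54 ± 0.27 in HBEGF, 1.14 ± 0.22 in MYC and 1.13 ± 0.22 in TRIB1 (limma adjusted p = 0.00616, 0.0182 and 0.0182), where 0.0751% of genes were called higher. The F test call of MYC held in 6 of 16 alternatives, and among single libraries it held only without PEG replicate C. The F test called none of the 3 genes without bPEI replicate B or without citrate replicate C, where HBEGF was 1.46 and 1.34 higher with citrate than with bPEI. Against bPEI, the HBEGF call ended without citrate replicate C. The MYC and TRIB1 calls ended without bPEI replicate B (1.07 and 1.01), citrate replicate A (1.21 and 1.28) or citrate replicate C (1.06 and 0.99). All 3 calls against bPEI also ended where only the groups compared were fitted. Those of MYC and TRIB1 ended too where each group had its own variance weight. PEG against bPEI gave 0 calls among these genes and among all genes (0.0%), with 7 of the 8 at an unadjusted p under 0.05 and 0 called by edgeR. In HBEGF its 95% interval was 0.57 to 1.68 and in TRIB1 0.49 to 1.39.

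At 12 h the F test called IER2 (limma adjusted p = 0.0175), 1 of 8, where 0.418% of genes were called. Citrate was above bPEI by 1.56 ± 0.32 in IER2, 1.49 ± 0.35 in MAFF and 0.80 ± 0.20 in MYC (limma adjusted p = 0.0125, 0.0244 and 0.0319), 3 of 8, where 0.933% were called higher. The IER2 call ended without bPEI replicate B or C or citrate replicate B (1.41, 1.49 and 1.45). The MAFF call ended without bPEI replicate A, B or C or citrate replicate B or C (1.39, 1.58, 1.49, 1.45 and 1.38), and the MYC call without any 1 of the 6 libraries (0.70 to 0.87). PEG against bPEI gave no call (0.0215% of genes), with 2 of the 8 at an unadjusted p under 0.05 and 0 by edgeR. The F test call of IER2 ended without bPEI replicate B or without any of citrate replicates A, B and C. At 24 h the F test called none of the 8 genes, where 0.15% were called, 1 had an unadjusted p under 0.05, and edgeR called 0.

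Citrate and PEG gave no call between them at 6 or 12 h with all libraries. At 6 h no gene was called between them (0.0%), 1 of the 8 had an unadjusted p under 0.05 and edgeR called 0. The 95% intervals of citrate minus PEG at 6 h were 0.04 to 1.02 in MYC, -0.36 to 1.26 in IER2, -0.20 to 1.54 in MAFF and -0.19 to 1.02 in HBEGF. At 12 h none of the 8 was called (0.0215% of genes), 2 had an unadjusted p under 0.05 and edgeR called 0. The widest gap at 12 h was IER2, at 1.48 ± 0.32 (95% interval 0.82 to 2.14, limma adjusted p = 0.0891). This IER2 gap was called without PEG replicate C (1.80) and without both bPEI replicate B of 6 h and NoNP replicate B of 24 h, with adjusted p-values from 0.0126 to 0.752 over its alternatives. These intervals leave room for differences of more than 1 log2 unit in IER2 and MAFF, so the missing calls do not show that the coatings acted alike.

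**Figure D3:**
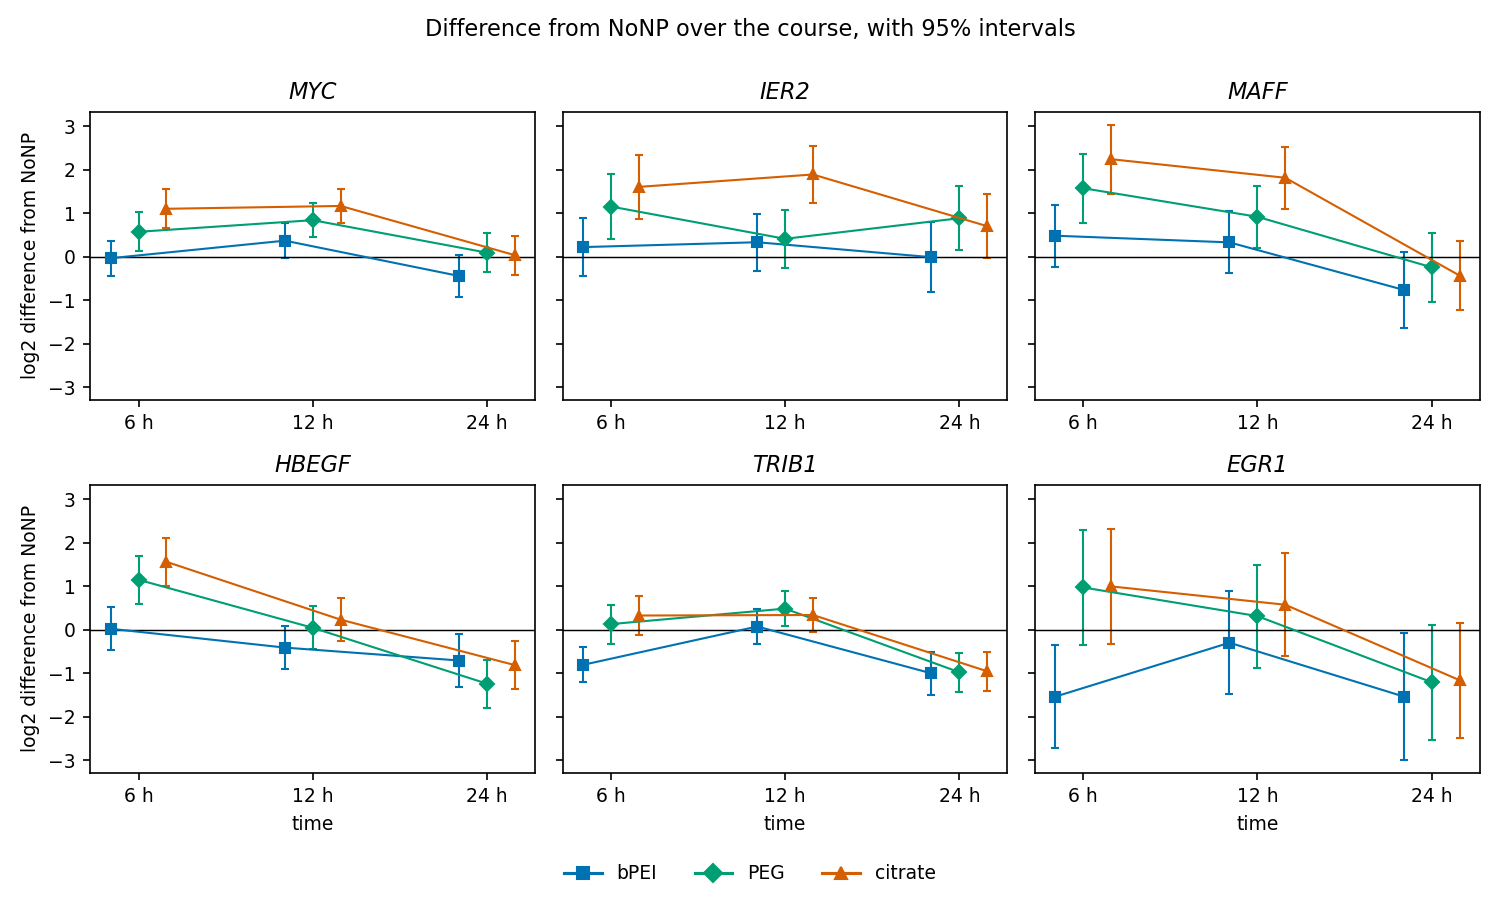
Log2 difference from NoNP of the same time (vertical axis) at 6, 12 and 24 h (horizontal axis) for 6 genes, with points and bars giving the estimate and its 95% interval for each coating. In HBEGF the citrate and PEG points go from 1.56 and 1.15 at 6 h to -0.82 and -1.24 at 24 h, and in TRIB1 all 3 coatings lie near -1.0 at 24 h.

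Whether the effect of exposure depended on time was tested directly. The F test of the interaction called HBEGF and TRIB1 (limma adjusted p = 0.00198 and 0.0146), 2 of 8, where 0.665% of genes were called, and HBEGF held in all 40 alternatives and TRIB1 in 39 of 40. Between 6 and 24 h the difference from NoNP changed by -2.39 ± 0.38 in HBEGF with PEG (limma adjusted p = 0.00171), where 0.0858% of genes were called lower. With citrate it changed by -2.38 ± 0.38 in HBEGF and -2.68 ± 0.55 in MAFF (limma adjusted p = 0.000793 and 0.0137), where 0.15% were called lower. Between 12 and 24 h it changed by -1.46 ± 0.30 in TRIB1 with PEG (limma adjusted p = 0.014, 0.0644% called lower). With citrate it changed by -2.25 ± 0.52 in MAFF, -1.29 ± 0.30 in TRIB1 and -1.13 ± 0.29 in MYC (limma adjusted p = 0.0251, 0.021 and 0.0472, 0.493% called lower). Without NoNP replicate B of 24 h the changes with citrate in MAFF were not called (-1.95 from 6 h and -1.52 from 12 h), nor was that in MYC (-1.13). In these contrasts both the NoNP change and the change in exposed cells enter, and they are given next.

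In NoNP cells the genes moved with time in culture. From 6 to 12 h IER3 rose by 1.82 ± 0.45, and MAFF and IER2 changed by -1.39 ± 0.35 and -1.0 ± 0.32 (limma adjusted p = 0.00802, 0.00734 and 0.0394), 3 of 8, where 11.8% of genes were called. From 12 to 24 h MAFF rose by 2.12 ± 0.39, IER2 by 1.67 ± 0.36, MYC by 0.86 ± 0.22 and TRIB1 by 0.77 ± 0.22 (limma adjusted p = 0.000236, 0.00137, 0.00569 and 0.013), 4 of 8, where 8.09% were called higher. The MAFF rise in NoNP was called with either 24 h library left out, at 2.84 without replicate A and 1.39 without replicate B. Leaving out replicate A or B of 24 h gave 1.92 or 1.42 for IER2 and 0.86 in both cases for MYC, all called. The TRIB1 rise was not called without replicate A at 24 h (0.59), nor the fall of IER2 from 6 to 12 h without 6 h replicates A or C or 12 h replicates A or B (-0.79, -1.09, -1.09 and -0.64), nor that of MAFF without 6 h replicate A (-1.16).

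In bPEI cells 6 of the 8 genes changed from 6 to 12 h, where 28.7% of all genes did. IER3 rose by 2.63 ± 0.45, EGR1 by 1.78 ± 0.57 and TRIB1 by 0.90 ± 0.20, while JUN, MAFF and IER2 changed by -2.34 ± 0.88, -1.54 ± 0.35 and -0.89 ± 0.32 (limma adjusted p = 0.000107, 0.0226, 0.000992, 0.0444, 0.00133 and 0.0365). Without bPEI replicate B at 6 h, EGR1, JUN and IER2 were not called, at 0.60, -2.02 and -0.51. EGR1 was also not called without 12 h replicate A (1.64), IER2 without 12 h replicate B or C (-0.74 and -0.83), and JUN without 6 h replicate A (-2.41) or 12 h replicate A, B or C (-2.14, -2.62 and -2.27). IER3, TRIB1 and MAFF held in all 15 alternatives. From 12 to 24 h IER2 rose by 1.32 ± 0.36 (limma adjusted p = 0.0353), 1 of 8, where 1.75% were called higher, and the call ended without bPEI replicate B or C of 12 h or A or B of 24 h (1.17, 1.26, 1.56 and 1.08).

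In PEG cells MAFF and IER2 changed by -2.05 ± 0.39 and -1.75 ± 0.36 from 6 to 12 h (limma adjusted p = 0.000838 and 0.00198), 2 of 8, where 5.51% were called lower. From 12 to 24 h IER2 rose by 2.14 ± 0.32 and TRIB1 changed by -0.69 ± 0.20 (limma adjusted p = 2.13e-05 and 0.0153), 2 of 8, where 14.8% of genes were called. TRIB1 was not called without PEG replicate B or C of 12 h or B or C of 24 h (-0.66, -0.64, -0.66 and -0.56), and MAFF not without PEG replicate A of 6 h (-1.55).

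In citrate cells MAFF changed by -1.82 ± 0.39 from 6 to 12 h (limma adjusted p = 0.00359), 1 of 8, where 2.64% were called lower, and not without citrate replicate C of 6 h (-1.52). From 12 to 24 h limma called none of the 8, where 11.7% of genes were called, 1 had an unadjusted p under 0.05 and edgeR called 0. MAFF thus fell from 6 to 12 h in all 4 exposures and was called in each. The 12 to 24 h rise of MAFF in NoNP stood beside a citrate change of -0.13 ± 0.35, and the rise of TRIB1 in NoNP beside -0.52 ± 0.20 with citrate and -0.69 ± 0.20 with PEG.

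Ordered by group mean, MYC ran from 603 ± 68.3 (SD, n = 3) in NoNP at 12 h to 1718 ± 129 (SD, n = 2) with citrate at 6 h, a 2.85-fold range, and 5 groups between 1089 and 1196 lay within their spread of each other. MAFF had the widest range, 12.9-fold, from 38.2 ± 5.60 (SD, n = 3) in NoNP at 12 h to 491 ± 142 (SD, n = 2) with citrate at 6 h. IER2 ranged 5.77-fold between the same groups, from 85.4 ± 35.5 to 493 ± 28.3. HBEGF ranged 2.98-fold, from 133 ± 15.9 in NoNP at 6 h to 397 ± 76.7 with citrate at 6 h, with bPEI at 6 h (135 ± 12.1) inside the NoNP spread. Without NoNP replicate B of 24 h, the remaining NoNP library of 24 h, at 408, was above this citrate mean. Without replicate A instead, the remaining one, at 289, was below it.

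TRIB1 ranged 3.03-fold, from 352 ± 49.3 (SD, n = 3) with bPEI at 6 h to 1067 ± 193 (SD, n = 2) in NoNP at 24 h, and its 3 exposed groups at 24 h, 528 ± 42.9, 544 ± 116 and 549 ± 75.6, did not differ beyond their spread. EGR1 ranged 8.86-fold, from 76.2 ± 59.0 to 674 ± 393, between those same groups, and 3.60-fold without bPEI replicate B of 6 h and NoNP replicate B of 24 h. IER3 ranged 9.11-fold, from 36.9 ± 10.7 with bPEI at 6 h to 336 ± 80.9 in NoNP at 12 h. Without the same libraries as for EGR1, IER3 ranged 11.8-fold, up to the remaining NoNP library of 24 h at 491. JUN ranged from 4.15 ± 2.36 in NoNP at 12 h to 42.9 ± 47.0 in NoNP at 24 h, where the SD exceeded the mean. Without those libraries the highest JUN mean was 37.0, with citrate at 6 h. The distance between the 2 NoNP libraries of 24 h does not tell which of them stands apart. Without NoNP replicate A of 24 h instead of B, the remaining library had 953 in EGR1, 154 in IER3 and 76.1 in JUN.

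Over the 12 group means, the log2 levels of the genes were most alike for MAFF with IER2 (Pearson r = 0.84), EGR1 with TRIB1 (0.83) and MAFF with MYC (0.81), and least alike for IER3 with JUN (-0.61). Of the other genes tested, those with the highest correlation with MAFF were ATF5 (0.93) and FAM21C (0.93), and with MYC TRMT1 (0.89), NSUN5 (0.88) and EEF2 (0.87). For IER2 they were PSMC5 (0.95), TRABD (0.94) and R3HCC1 (0.94), and for HBEGF ESCO1 (0.82), IKZF4 (0.82) and SRPK1 (0.79). For TRIB1 they were PARD6B (0.90), SMIM13 (0.87) and INIP (0.87), and for EGR1 TTL (0.89), PLEKHM2 (0.87) and TEAD4 (0.87). For IER3 they were RINT1 (0.96), SMS (0.96) and ARG2 (0.94), and for JUN ARCN1 (0.97), MAN2C1 (0.93) and SIK1 (0.91). These are descriptions over 12 groups whose genes share the same libraries, with 9324 genes to choose from.

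The other genes of these pathways were compared with NoNP in the same way. Of 30 other immediate early factors listed, 29 were in the table and 23 were tested, and 0 were called in any of the 9 comparisons of a coating with NoNP. With citrate at 6 h their median log2 difference was 0.67, with 18 of 23 above 0, beside -0.00 over all genes tested. The AP-1 subunit FOSB had 3.25 ± 0.89, CSRNP1 1.81 and the zinc finger factor KLF6 1.44, none called (limma adjusted p = 0.137, 0.121 and 0.127). With PEG at 6 h the median was 0.50. PHLDA1 had -2.63 ± 0.74 with bPEI at 6 h (limma adjusted p = 0.0519).

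Of 9 ERK feedback inhibitors tested, phosphatases and Sprouty proteins that ERK signalling induces and that act back on it, 2 rose with citrate at 12 h, DUSP5 by 2.06 ± 0.53 and SPRY1 by 1.63 ± 0.30 (limma adjusted p = 0.0171 and 0.00104), where 3.88% of all genes tested were called higher. SPRY1 also rose by 1.51 ± 0.30 with PEG and by 1.47 ± 0.30 with bPEI at 12 h (limma adjusted p = 0.00981 and 0.0461), 1 of 9 in each, where 0.279% and 0.0429% were called higher. With bPEI, 1 of 9 fell at 6 h, DUSP1, at -2.34 ± 0.32 (limma adjusted p = 0.000271), and 1 at 24 h, DUSP6, at -1.72 ± 0.43 (limma adjusted p = 0.0147), where 1.32% and 1.5% were called lower. The list's median with citrate went from 0.67 at 6 h and 0.87 at 12 h to -0.78 at 24 h. No gene of the list was called with PEG or citrate at 6 or 24 h.

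Of 17 MYC target genes tested, SRM, which makes spermidine, rose with citrate by 1.60 ± 0.45 at 12 h and 1.83 ± 0.50 at 24 h (limma adjusted p = 0.0297 and 0.0314), 1 of 17 at each time, where 3.88% and 2.8% of all genes were called higher. The cyclin D partner CDK4 was lower with bPEI at 6 h, at -0.98 ± 0.23 (limma adjusted p = 0.0256, 1.32% of all genes lower), and the remaining members were not called with any coating. The list's median with citrate was 0.38 at 6 h and 0.41 at 12 h. Of 8 genes of the MYC and MAX network, 1 was called in the 9 comparisons, MLXIP, a glucose-sensing partner of MLX, at 2.29 ± 0.59 with bPEI at 6 h (limma adjusted p = 0.0388), where 0.686% were called higher.

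Of 6 EGF family ligands, receptors and sheddases tested beside HBEGF, 1 was called in the 9 comparisons, the receptor EGFR, at -1.40 ± 0.34 with bPEI at 24 h (limma adjusted p = 0.0133), where 1.5% of all genes were called lower. Of 6 partners of MAFF tested, 1 was called, NFE2L2, which encodes NRF2, at -1.29 ± 0.33 with bPEI at 6 h (limma adjusted p = 0.039), where 1.32% were called lower. Of 3 relatives and partners of TRIB1 tested, CEBPB, a C/EBP factor of the liver acute phase, rose by 1.33 ± 0.35 with citrate at 12 h (limma adjusted p = 0.0202), where 3.88% were called higher. TRIB1 itself had 0.34 ± 0.20 there. These lists were drawn up with results of these data known, and their counts are descriptions. Whether the calls of list genes held without bPEI replicate B of 6 h or without NoNP replicate A or B of 24 h was not tested.

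**Figure D4:**
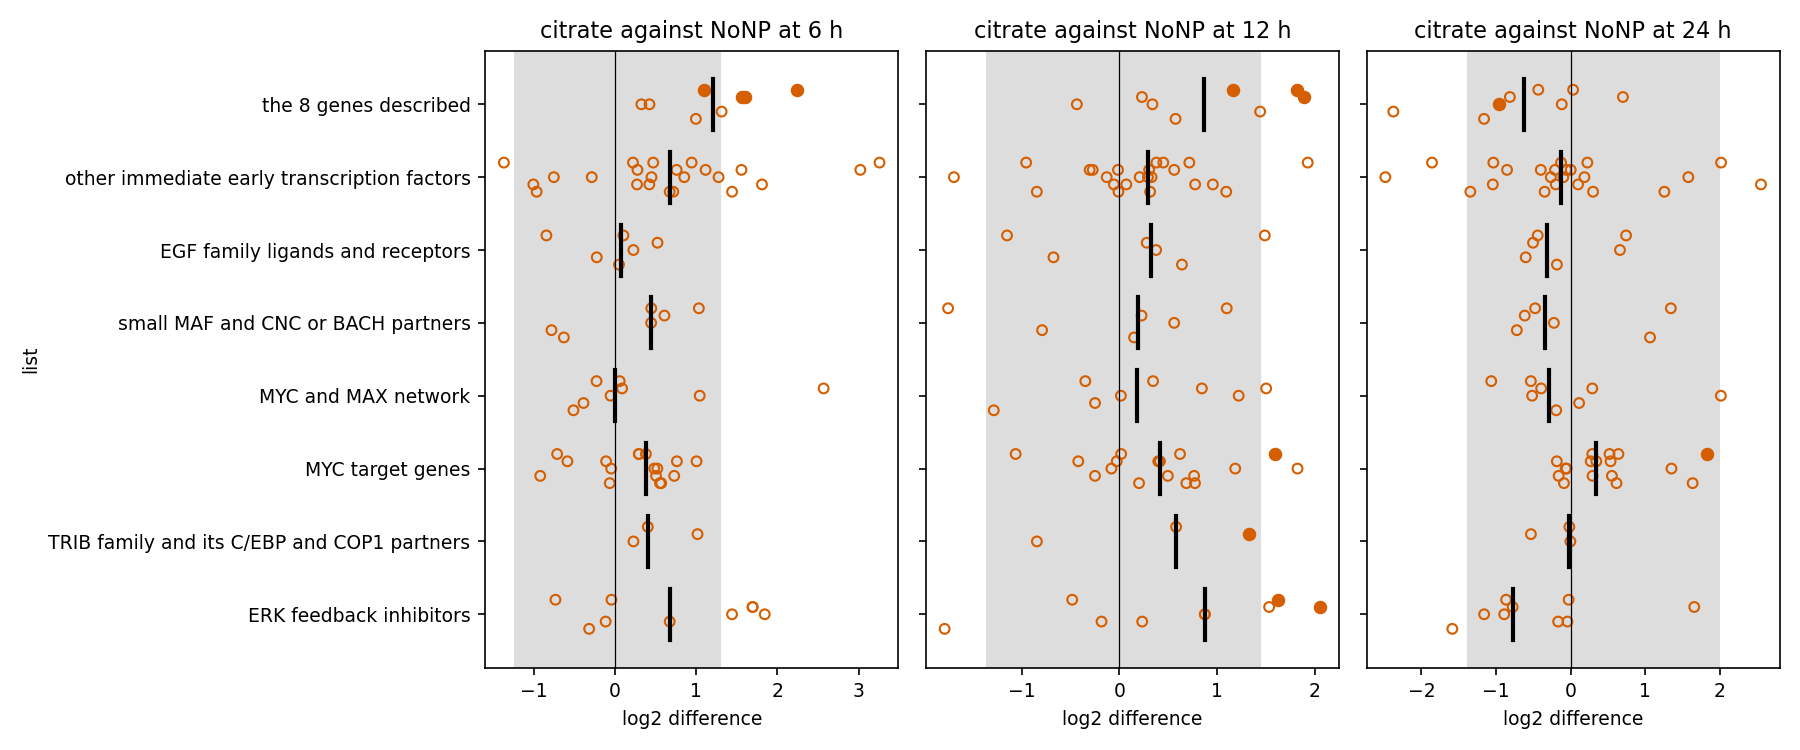
Log2 difference of citrate from NoNP (horizontal axis) at 6, 12 and 24 h for the genes tested of each list (vertical axis), with filled points for limma adjusted p under 0.05, black bars for medians and grey bands from the 5th to the 95th percentile of all genes tested. The 8 genes have medians of 1.21, 0.87 and -0.63, and the other immediate early factors hold no filled point at any time.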

How the data were processed

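TempO-Seq libraries were made from lysates of HepG2 cells, per the labels' protocols. The deposited signal is a table of normalized reads that the authors made by dividing each library's gene reads by 1 size factor, as the values themselves show: 100% of them came out as whole reads within 0.01 reads. Not given in the sources used here are the aligner, the counting, the combination of probes and the build.

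The 32 libraries were grouped by exposure and time from their titles. Genes with a mean under 5 normalized reads (3809 of 13133) were left out. The main test was limma (version 3.58.1, R 4.3.3) with trend and robust settings on log2(value + 1), with 1 mean for each of 12 groups and 20 residual degrees of freedom, so a fold change of a low gene is understated. Contrasts compared each coating with NoNP, the coatings with each other, the times within an exposure, and the coating effects between times. Benjamini-Hochberg adjustment ran over 9324 genes per contrast, at a threshold of 0.05. edgeR's quasi-likelihood test (version 4.0.16) on the recovered reads was an alternative. Against NoNP it called 118, 16 and 317 genes with bPEI, 2, 80 and 143 with PEG and 21, 691 and 194 with citrate at 6, 12 and 24 h. Other alternatives were a pseudocount of 5, no filter, a filter at a mean of 20, equal library totals, a replicate term, variance weights per group, only the groups compared, and leaving out libraries.

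Both tests were tested on simulated data. No replicate pair differed by as little as sampling noise (lowest mean chi-square per gene 4.30). The genes named are the 8 by name, those called in each pathway list or, failing that, up to 4 with the smallest p, and the 3 genes most like each of the 8, of which 1 is not reported here. The 8 genes and the lists were chosen with earlier results of these data known. Promoter windows came from RefSeq.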

Additional observations from a re-analysis of the deposited data

Results flagged for a closer look

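In 7 cases the difference between exposed and NoNP cells changed with time by limma's test of that change itself (adjusted over all genes tested). All 7 were negative and all use the same 2 NoNP libraries at 24 h, so they are not independent of each other.

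HBEGF, the EGFR ligand, went from higher at 6 h to lower at 24 h, a change of -2.39 with PEG and -2.38 with citrate. As single libraries were left out these changes ran from -2.82 to -1.96 and from -2.62 to -2.13. The PEG call ended without PEG replicate A of 6 h (-1.96), with variance weights per group and with only the groups compared, and the citrate call ended only with variance weights among its 19 alternatives.

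TRIB1, the pseudokinase, changed from 12 to 24 h by -1.46 with PEG and -1.29 with citrate, and each held in 15 of 20 alternatives. The PEG call ended without PEG replicate C of 12 h (-1.41) or PEG replicates B or C of 24 h (-1.43 and -1.34). The citrate call ended without NoNP replicate B of 12 h (-1.24) or citrate replicate C of 12 h or 24 h (-1.22 and -1.17).

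MAFF, the small MAF factor, changed with citrate by -2.68 from 6 to 24 h, called in 14 of 19 alternatives, and by -2.25 from 12 to 24 h, called in 11 of 20. Without NoNP replicate B of 24 h neither was called, at -1.95 and -1.52. The first also ended without NoNP replicate C (-2.51) or citrate replicate C (-2.38) of 6 h. The second also ended without NoNP replicates A or B of 12 h (-2.25 and -2.14), citrate replicates B or C of 12 h (-2.21 and -2.15) or citrate replicate C of 24 h (-1.97). MYC changed with citrate by -1.13 from 12 to 24 h and was called in 5 of 20 alternatives, with a range of -1.21 to -1.01 as single libraries were left out. The only library among those it rests on whose removal kept this MYC call was NoNP replicate A of 24 h.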

How the results depend on the processing

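Of the 51 called results of the 8 genes, 10 stayed past the threshold in all of their alternatives. None of the log2 differences among the 51 changed sign, and the F tests among them have no sign. The count of the 8 genes called moved as follows. With variance weights per group it was 0 for bPEI, PEG and citrate against NoNP at 24 h and among coatings at 6 h, 2 for PEG at 6 h, 4 among coatings at 12 h, 1 for NoNP from 12 to 24 h, 2 for bPEI from 12 to 24 h and 1 for the interaction. With only the groups compared it was 0 for bPEI at 6 h, for each coating at 24 h, among coatings at 6 h and for NoNP from 12 to 24 h, 3 for PEG at 6 h, 4 among coatings at 12 h and 2 for bPEI from 12 to 24 h. Without bPEI replicate B of 6 h and NoNP replicate B of 24 h it was 0 for bPEI at 6 h, 3 for PEG at 6 h, 2 for citrate at 24 h, 6 and 3 among coatings at 6 and 12 h, 3 for bPEI from 6 to 12 h, 4 for PEG and 1 for citrate from 12 to 24 h. Among coatings at 12 h it was 3 with equal library totals and 2 by edgeR. The cause was not tested.

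Leaving out single libraries gave counts of 0 to 2 for bPEI and 0 to 1 for PEG at 6 h, 0 to 4 for citrate at 6 h, 0 to 1 for PEG at 12 h, and 0 to 3, 0 to 2 and 1 to 2 for bPEI, PEG and citrate at 24 h. Counts were 0 to 4 and 0 to 1 among coatings at 6 and 12 h, 1 to 3 for NoNP and PEG and 3 to 6 for bPEI from 6 to 12 h, 0 to 1 for citrate from 6 to 12 h and bPEI from 12 to 24 h, and 1 to 3 for PEG from 12 to 24 h.

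Same-letter replicates of a time had correlations of their deviations between -0.16 and 0.29 over 44 pairs, with 6 over 0.1, so the letters were not taken as pairs. With a replicate block, the bPEI count at 6 h was 2, as IER3 was also called, and IER3 with PEG at 6 h was -0.13, and IER2 with citrate at 6 h (1.57) was not called.

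The sign turned for 18 values, all uncalled. With equal library totals MYC with bPEI at 6 h became 0.040, IER2 with bPEI at 24 h 0.093 and IER3 with citrate at 24 h 0.048. By edgeR IER2 with bPEI at 24 h became 0.051 and IER3 with PEG at 6 h -0.010. Without both libraries named above, MYC and IER2 with bPEI at 6 h became 0.035 and -0.16, IER2 with bPEI at 24 h 0.24, IER3, JUN and MAFF with PEG at 24 h -0.64, 0.67 and 0.48, and MAFF with citrate at 24 h 0.29. As single libraries were left out, values with bPEI at 6 h ran from -0.17 to 0.14 in MYC, -0.16 to 0.43 in IER2 and -0.080 to 0.10 in HBEGF. IER2 with bPEI ran from -0.036 to 0.61 at 12 h and -0.26 to 0.24 at 24 h, and IER3 from -1.46 to 0.21 at 24 h. With PEG at 6 h IER3 ran from -0.59 to 0.62 and TRIB1 from -0.24 to 0.50, and at 12 h HBEGF from -0.0033 to 0.11. With PEG at 24 h MYC ran from -0.064 to 0.19, IER3 from -0.64 to 1.02, JUN from -2.19 to 0.67 and MAFF from -0.97 to 0.48. With citrate IER3 ran from -0.99 to 0.19 at 12 h and -0.95 to 0.71 at 24 h, MYC from -0.037 to 0.15 and MAFF from -1.16 to 0.29 at 24 h. HBEGF between citrate and PEG at 6 h ran from -0.015 to 0.84.

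Groups of 2 or 3 libraries limit every call, and where 1 library remained it was taken to vary like the other groups. Depth was lowest for JUN, with 0 to 78 reads per library, while MYC had 349 to 2306. The part of depth in the JUN results was not tested.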
